A study of Mus musculus with 4 samples.

Results

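Myc, its neighbour Pvt1 and the partners and antagonists of the MYC protein were followed in nascent RNA of double positive (DP) thymocytes, developing T cells that carry both CD4 and CD8. The set held 10 of the 24984 genes of the fragment count table. It was composed by name, as Myc, Pvt1, Mycn, Mycl, Max, Mxd1, Mxd3, Mxd4, Mxi1 and Mnt, and it was selected on fold changes between the genotypes that were already known from these libraries, so the differences of the 10 genes are given as a description. The assay was TTchem-seq, in which RNA made during a pulse of 4-thiouridine is enriched and sequenced, so that introns are read together with exons. Mice carried floxed Tox4 alleles (genotype Tox4;F/F, called WT) or those alleles with an Lck-Cre transgene (Tox4;F/F;Lck+, called cKO), and there were 2 libraries of each genotype. Both groups therefore carried the floxed alleles, on a C57BL/6 background, and no group controlled for Cre alone. According to the authors, the proximal Lck promoter drives Cre from an early thymocyte stage. In their methods, the floxed part is exons 4 to 6 and the mice were 6 to 8 weeks old. A purification of DP cells with CD4 beads is described there for other assays, and how the cells of these libraries were purified is not given in the sources used here.

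MYC is a transcription factor of cell growth and division that binds DNA as a dimer with MAX, preferring the E-box CACGTG. The MXD proteins, MXI1 and MNT also pair with MAX and bind the same sites, where they recruit the SIN3 corepressor, and so oppose MYC. In the thymus, MYC is known for the growth of early thymocytes, and it is low in most DP cells. Pvt1 is a long noncoding RNA gene beside Myc.

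The libraries held 38429786 to 48690591 fragments. All 8 DP markers were detected, with a summed level of 3059 to 3881 counts scaled to the library total (CPM). Tox4 itself, the deleted gene, was at 74.0 and 70.3 CPM in WT and at 59.3 and 57.2 CPM in cKO (log2 fold change -0.31, SE 0.0998, DESeq2 adjusted p = 0.0453). This call was kept by edgeR on every gene with a count (adjusted p = 0.0414) and lost with edgeR on filtered genes (0.153), limma voom (0.121) and total count factors (0.0511), at a log2 fold change of -0.31 in each. It was also lost without any 1 library (0.623 without WT replicate 1, 0.196 to 0.792 over the 4), where the log2 fold change was -0.34 to -0.28. Counted over introns and exons, Tox4 stayed at 0.806 of its WT level, and the counts do not show how many cells had lost the floxed exons. At the protein level, the authors describe the deletion as efficient, by Western blot of unsorted and sorted thymocytes. WT replicate 1 stood apart from the other 3 libraries. It held 172 CPM of Xist and 0.164 CPM of the Y-linked Ddx3y, against at most 2.36 CPM of Xist and at least 54.0 CPM of Ddx3y elsewhere, although the methods describe gender-matched littermates. It was also the lowest in 12 summed markers of cycling cells, at 288.5 CPM against 504.7 in WT replicate 2 and 604.3 and 480.1 in the cKO libraries. Results are therefore given with and without this library where it moves them. A fit without 1 library leaves 1 library in a group, so its spread comes from the other group alone. A call lost in such a fit does not by itself show a smaller difference.

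Because the network acts through the E-box, the promoters of members that hold CACGTG are shown. Promoter sequences, from 250 bases before to 50 bases after each start site, were taken from RefSeq on GRCm38.p6, and 8 of the 10 genes had one, with 10 promoters in all. CACGTG, which reads the same on both strands, was found in 3 of these 10 promoters, those of Mxd4, Max and Mnt, and in 7.15% of 32851 promoters of the annotation. The sequences below are of Mxd4 (chr5:34187661-34187960, minus strand), Max (chr12:76962199-76962498, minus strand) and Mnt (chr11:74830674-74830973, plus strand), written 5′ to 3′ along the gene with the E-box in capitals.
Mxd4: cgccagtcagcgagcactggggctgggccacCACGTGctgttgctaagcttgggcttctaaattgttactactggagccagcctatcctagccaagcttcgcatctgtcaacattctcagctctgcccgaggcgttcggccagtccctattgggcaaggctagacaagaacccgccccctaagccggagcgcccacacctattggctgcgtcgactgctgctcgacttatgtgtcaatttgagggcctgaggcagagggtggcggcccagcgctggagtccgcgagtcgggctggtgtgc
Max: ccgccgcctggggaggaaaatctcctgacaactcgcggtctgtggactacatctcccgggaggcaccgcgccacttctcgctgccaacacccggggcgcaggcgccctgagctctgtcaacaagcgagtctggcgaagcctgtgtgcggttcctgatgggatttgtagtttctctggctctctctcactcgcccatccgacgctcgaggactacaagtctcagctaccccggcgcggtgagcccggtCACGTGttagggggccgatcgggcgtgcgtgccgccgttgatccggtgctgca
Mnt: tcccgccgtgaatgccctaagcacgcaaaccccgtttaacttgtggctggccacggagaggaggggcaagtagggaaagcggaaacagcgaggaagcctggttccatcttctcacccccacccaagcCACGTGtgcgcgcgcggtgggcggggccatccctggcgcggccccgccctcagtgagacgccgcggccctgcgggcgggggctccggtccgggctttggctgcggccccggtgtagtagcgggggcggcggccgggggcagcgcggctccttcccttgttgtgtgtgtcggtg
The first base of the E-box lay 219 bases before the start site in Mxd4, 123 in Mnt and 3 in Max. The GC box GGGCGG, searched on both strands, was in 9 of the 10 promoters, against 35.7% of all promoters, and was missing from that of Max. TATAAA, searched in the same way, was in the promoter of Mycl alone, against 13.6% of all. These are matches of letters in a window and do not show binding.

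Per length of gene, Mxd4, Mnt, Mxd1 and Mxi1 were above Myc, Mycn and Mycl within each library, while Mxd3 was above Myc in both WT and below it in both cKO libraries. Levels of different genes were compared as CPM per kb of gene, introns included. Mxd4 was highest, at 27.2 ± 1.56 CPM per kb in WT and 22.6 ± 1.06 in cKO (SD, n = 2 each), in the 98.2 percentile of genes whose mean CPM reached 1. Mnt followed at 8.40 ± 0.477 and 8.49 ± 1.31, and Max, the common partner, at 6.73 ± 0.0998 and 6.48 ± 0.0170. Mxd1 was at 4.49 ± 0.0246 and 3.82 ± 0.0548 CPM per kb and Mxi1 at 2.85 ± 0.0949 and 2.94 ± 0.107. Below them lay Mxd3 at 2.29 ± 0.831 and 2.43 ± 0.193 and Myc at 1.61 ± 0.406 and 2.83 ± 0.169. Mycn was at 0.662 ± 0.485 and 0.814 ± 0.272, Pvt1 at 0.105 ± 0.0101 and 0.156 ± 0.0109, and Mycl at 0.0255 ± 0.00949 and 0.00960 ± 0.0136.

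Most neighbours in this order kept apart in all 4 libraries. The ranges of Mxi1 and Mxd3, and of Mxd3 and Myc, did overlap over the 4 libraries, and Mxd3 and Myc changed places between the WT and the cKO mean. Within the antagonists, Mxd4 made up 62.5% and 57.8% of the summed density of Mxd1, Mxd3, Mxd4, Mxi1 and Mnt in WT, and 55.4% and 56.8% in cKO. The summed density of Myc, Mycn and Mycl was 3.69% and 6.47% of that of the antagonists in WT and 9.40% and 8.74% in cKO. The lowest of these 4 shares was that of WT replicate 1.

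**Figure D1:**
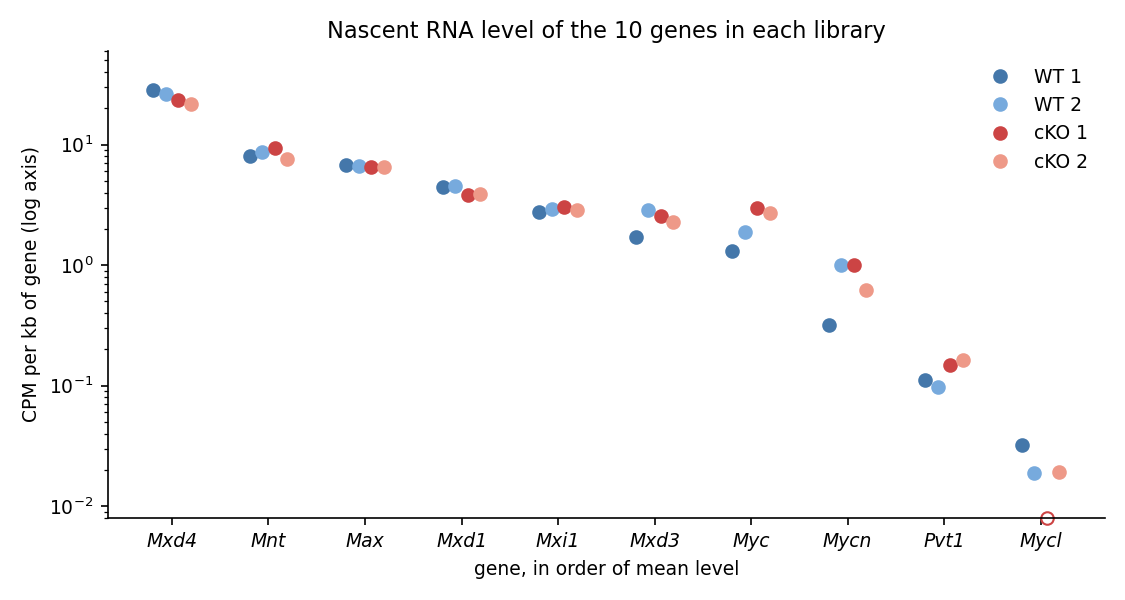
Level of each of the 10 genes in CPM per kb of gene, on a log axis, with a point for each library (WT blue, cKO red) and genes in order of their mean. Mxd4 is highest in all 4 libraries and Mycl lowest, and the open circle on the axis marks the cKO library in which Mycl had 0 fragments.

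Myc was higher in cKO than in WT. The gene lies at chr15:61985341-61990361 on the plus strand of GRCm38, over 5021 bp of which 47.8% is exon. It was at 6.63 and 9.51 CPM in WT replicates 1 and 2, and at 14.8 and 13.6 CPM in cKO replicates 1 and 2. The groups did not overlap, cKO being the higher, and the WT libraries differed from each other by more than their counting intervals (5.87 to 7.44 and 8.66 to 10.4 CPM). The log2 fold change of cKO over WT was 0.81 (SE 0.222), or 1.76-fold, with a DESeq2 adjusted p of 0.0103. Without WT replicate 1 it was 0.57 (adjusted p = 0.562), and without WT replicate 2 it was 1.11 (adjusted p = 0.00540). It was 0.76 without cKO replicate 1 (adjusted p = 0.524) and 0.87 without cKO replicate 2 (adjusted p = 0.381). In bulk samples such as these, a change in the share of cells that transcribe a gene and a change in the RNA made per cell cannot be told apart.

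Of 12 markers of cycling cells, 9 overlapped between genotypes and 3 were higher in both cKO libraries, which holds for 24.9% of all genes. All 12 were lower in WT replicate 1 than in WT replicate 2, as Myc was. Their median log2 fold change of cKO over WT was 0.35, with 11 of 12 above 0. DESeq2 called 1 of them, Kif11, or 8.33% against 3.71% of all genes tested. The median was 0.03 without WT replicate 1, with none called, and 0.82 without WT replicate 2, with 8 called higher, and edgeR on every gene with a count called 5. The part of cycling cells in the Myc difference was not tested. Markers of double negative cells, the stage before DP, summed to 28.7 to 33.5 CPM over the 4 libraries, of B cells to 12.2 to 14.3 and of erythroid cells to at most 0.616 CPM. Those of myeloid cells summed to 4.43 and 3.86 CPM in WT and to 2.24 and 2.99 in cKO. Lyz2, Csf1r and Spi1 were lower in both cKO libraries than in both WT libraries, and Itgam higher. Only Itgam reached a mean of 1 CPM, so the others were near the floor and not tested. Among all genes tested, 24.0% were lower and 24.9% higher in this way. Markers of mature single positive cells summed to 428.3 to 491.4 CPM, and of the 5, DESeq2 called 2 higher and 1 lower in cKO, against 3.71% of all genes called. Filtered edgeR called none of these 5, limma voom called 1 higher, and without WT replicate 1 none was called. All 7 markers of the T cell selection signal summed to 227.7 to 242.9 CPM. Of the 6 tested, DESeq2 called 1 higher and 1 lower, against 3.71% of all genes called. The median log2 fold change of the 6 was -0.30, with 5 of 6 below 0, and it was -0.44 to -0.15 when 1 library was left out. Both cKO libraries lay below both WT libraries for 4 of the 6, against 24.0% of all genes tested. None of the 6 was called by filtered edgeR, by limma voom, with a replicate block or when any 1 library was left out. Of the 8 DP markers, Cd8a (-0.54, DESeq2 adjusted p = 1.21e-05) and Rag1 (-0.31, DESeq2 adjusted p = 0.0499) were called lower in cKO, and the median was -0.05, or -0.16 without WT replicate 1 and 0.05 without WT replicate 2. Only 1 of the 8 was called with TMM or total count factors, without independent filtering, with the stricter CPM filter or with rounding up, and none with filtered edgeR or limma voom. The part of these cells in the Myc difference was not tested either.

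Pvt1 begins 47624 bp beyond the end of Myc on the same strand, at chr15:62037986-62260212, and is 44.3 times as long, with 2.28% of its length in exons. It was at 24.9 and 21.7 CPM in WT replicates 1 and 2 and at 33.0 and 36.4 CPM in cKO replicates 1 and 2. The cKO libraries again lay above the WT libraries, but here WT replicate 1 was the higher of the WT pair. The log2 fold change was 0.58 (SE 0.140), or 1.49-fold (DESeq2 adjusted p = 0.00217). It was 0.67 without WT replicate 1 (adjusted p = 0.0266), 0.49 without WT replicate 2 (adjusted p = 0.157), 0.65 without cKO replicate 1 (adjusted p = 0.1) and 0.50 without cKO replicate 2 (adjusted p = 0.534).

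Per kb, Myc exceeded Pvt1 by 11.8 times in WT replicate 1, 19.4 times in WT replicate 2, 19.9 times in cKO replicate 1 and 16.6 times in cKO replicate 2. The ranges of this ratio overlapped between genotypes. Only 2 other genes of the table lay within 1 Mb of Myc or Pvt1. D030024E09Rik had 1 to 2 fragments in each library, and H2afy3, inside Pvt1 on the other strand, had 0 in all 4, so neither could be compared.

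**Figure D2:**
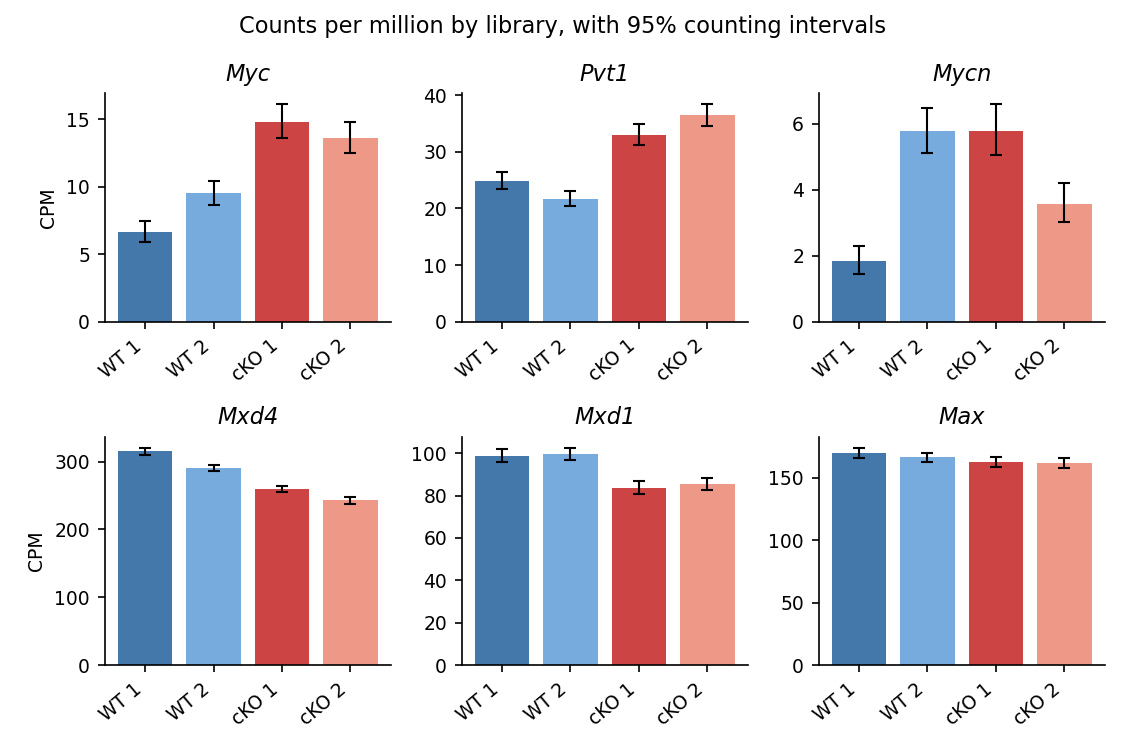
CPM of 6 genes in each library, with bars from 0 and lines for 95% exact binomial intervals, which cover counting error only. Myc and Pvt1 are higher and Mxd4, Mxd1 and Max lower in both cKO libraries than in both WT libraries, while Mycn is lowest in WT 1.

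The paralogs of Myc were less transcribed and showed no separation by genotype. Mycn, the paralog of neural and early progenitor cells, was at 1.83 and 5.77 CPM in WT replicates 1 and 2 and at 5.78 and 3.57 CPM in cKO replicates 1 and 2. The WT values enclosed the lower cKO value, and the log2 fold change was 0.29 (SE 0.448, adjusted p = 0.861). Its sign turned without WT replicate 1 (-0.32) and without cKO replicate 1 (-0.09). Mycl had 9 and 6 fragments in WT and 0 and 5 in cKO. It did not reach a mean of 1 CPM and was not compared. The count of 0 in cKO replicate 1 allows up to 0.0781 CPM, the level of 3 fragments, and its 95% exact interval reaches 0.0960 CPM.

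Max differed little, at 170.0 and 166.4 CPM in WT and 162.2 and 161.6 CPM in cKO. The groups did not overlap, but the log2 fold change was -0.06 (SE 0.0790, adjusted p = 0.839).

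Among the antagonists, Mxd4 was called lower in cKO, Mxd1 was below WT in both cKO libraries without being called, and the others overlapped between genotypes. Mxd4 was at 315.0 and 290.4 CPM in WT and at 259.6 and 242.9 CPM in cKO. This gave a log2 fold change of -0.27 (SE 0.0795), 1.21-fold lower in cKO, with a DESeq2 adjusted p of 0.0202. It ranged from -0.32 without WT replicate 2 (adjusted p = 0.0274) to -0.22 without WT replicate 1 (adjusted p = 0.481), and it was also not called without either cKO library. Mxd1, an antagonist of differentiating cells, was at 98.9 and 99.6 CPM in WT and at 83.7 and 85.4 CPM in cKO. It was 1.18-fold lower (log2 fold change -0.23, SE 0.0901, adjusted p = 0.136) and so lay just outside the fold limit of 1.2 that Mxd4 just passed, as well as outside the limit on p.

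Mxi1 was at 174.5 and 182.9 CPM in WT and at 189.3 and 179.8 CPM in cKO, with a log2 fold change of 0.04 (SE 0.0811, adjusted p = 0.892). Mnt, which is present in resting and dividing cells alike, was at 119.4 and 129.4 CPM in WT and at 139.4 and 112.0 CPM in cKO (0.01, SE 0.108, adjusted p = 0.984). Its cKO libraries lay on either side of the WT pair. Mxd3, the antagonist of dividing cells, was at 7.74 and 13.1 CPM in WT and at 11.7 and 10.5 CPM in cKO (0.08, SE 0.251, adjusted p = 0.943). Like Myc and Mycn, it was lowest in WT replicate 1, and its log2 fold change was -0.25 without that library. Mxd3 shares 103 bp with Prelid1 on the other strand.

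**Figure D3:**
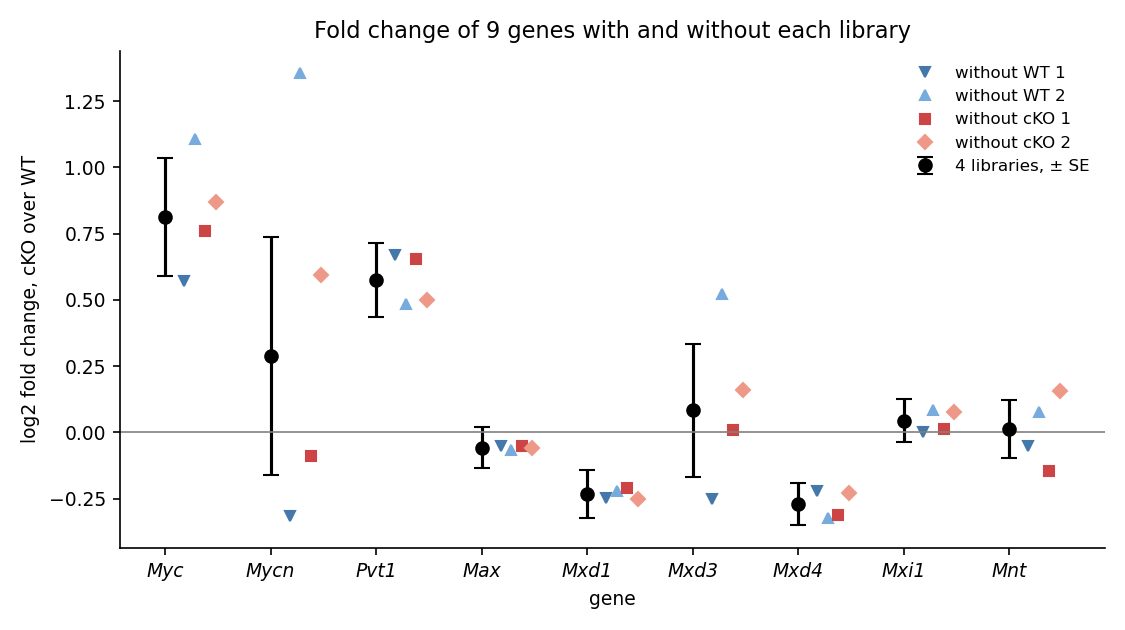
Log2 fold change of cKO over WT for the 9 tested genes, with black points for all 4 libraries (bars, SE of DESeq2) and coloured symbols for fits that leave out the library named. Myc and Pvt1 stay above 0 and Mxd4, Mxd1 and Max below 0 in all these fits, whereas Mycn, Mxd3 and Mnt cross 0.

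Of the 9 members whose mean CPM reached 1, DESeq2 called 3. Across all 11625 such genes 3.71% were called, 2.14% as higher and 1.57% as lower in cKO, but the members were chosen with this contrast known and nothing is read from their share. Both cKO libraries were above both WT libraries for 2 members, against 24.9% of all genes, and below them for 3, against 24.0%. The calls depended on the tool. Myc, Pvt1, Mxd1 and Mxd4 had an unadjusted p under 0.05 with every tool run. Nothing is read from this either, as the members were chosen with the contrast known and the share of all genes was not computed. The edgeR quasi-likelihood test called none of the 9 on genes kept by its expression filter (adjusted p of 0.108 for Pvt1, 0.150 for Myc and 0.167 for Mxd4), where it called 0.499% of all genes. On every gene with a count it called the same 3 (adjusted p of 0.000492 for Pvt1, 6.43e-05 for Myc and 0.00412 for Mxd4) and 7.21% of all genes, and the filter was put in after that higher count had been seen. Limma voom called none of the 9 and 0.723% of all genes (adjusted p of 0.0782 for Pvt1, 0.112 for Myc and 0.136 for Mxd4).

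Genes that MYC is known to activate were called at about the share of all genes. Of 49 such genes, for ribosome assembly, nucleotide synthesis, glycolysis, transport and translation, 1 was called higher and 1 lower in cKO, 4.08% against 3.71% of all genes tested. Their median log2 fold change was -0.02, against 0.00 over all genes tested, and it ranged from -0.06 without cKO replicate 1 to 0.01 without WT replicate 2. Both cKO libraries were above both WT libraries for 10 of the 49 and below for 12, against 24.9% and 24.0% of all genes tested. Cad, the enzyme that starts pyrimidine synthesis, was at 7.67 and 9.32 CPM in WT and at 13.4 and 13.7 CPM in cKO (log2 fold change 0.67, SE 0.204, DESeq2 adjusted p = 0.0305). Nop56, a core protein of the small nucleolar particles that modify ribosomal RNA, was at 72.8 and 71.6 CPM in WT and at 59.1 and 58.2 CPM in cKO (-0.30, SE 0.0983, DESeq2 adjusted p = 0.0492). Neither was called when any 1 library was left out. Ptma, the gene of the list with the highest level per kb, ranged from 145.6 to 205.0 CPM, with both cKO values inside the WT range.

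Of 10 genes that MYC is known to repress, 6 were tested and none was called by DESeq2, with a median log2 fold change of -0.12, which turned to 0.03 when WT replicate 2 was left out (-0.17 when it was WT replicate 1). At an unadjusted p under 0.05 there was 1 with DESeq2 and 2 with filtered edgeR and with limma voom, which also called none, and 4 with edgeR on every gene with a count, none of them called. Cdkn1b, the CDK inhibitor p27 and the highest of them per kb, was at 168.5 and 178.4 CPM in WT and at 166.6 and 164.4 CPM in cKO (-0.07, SE 0.0815, DESeq2 adjusted p = 0.803).

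None of the other genes of the network was called by DESeq2, by edgeR with or without the filter, or by limma voom. At an unadjusted p under 0.05 in DESeq2 there were 0 of 3 genes of the MLX arm and MGA, 0 of 9 of the SIN3 corepressor, 2 of 10 MYC cofactors (Ruvbl1 and Ruvbl2) and 1 of 14 of MYC turnover (Skp2). These genes were named after their values were seen. The medians of the log2 fold changes were -0.06 over 3 genes of the MLX arm and MGA, 0.04 over 9 of the SIN3 corepressor, 0.01 over 10 MYC cofactors and 0.05 over 14 genes of MYC protein turnover. With 1 library left out they ranged from -0.14 to 0.02, 0.00 to 0.11, -0.01 to 0.04 and 0.04 to 0.08 in that order, and the MLX arm and MGA turned to 0.02 without WT replicate 1, where the SIN3 median was 0.00. In the first 3 of these lists, the highest genes per kb were Mlx, which pairs with a related set of factors (-0.30, SE 0.182, DESeq2 adjusted p = 0.498), the corepressor scaffold Sin3b (-0.05, SE 0.0775, DESeq2 adjusted p = 0.861) and the acetyltransferase Kat5 (0.04, SE 0.108, DESeq2 adjusted p = 0.922). A p that misses the threshold with 2 libraries a group does not show that these genes were equal.

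**Figure D4:**
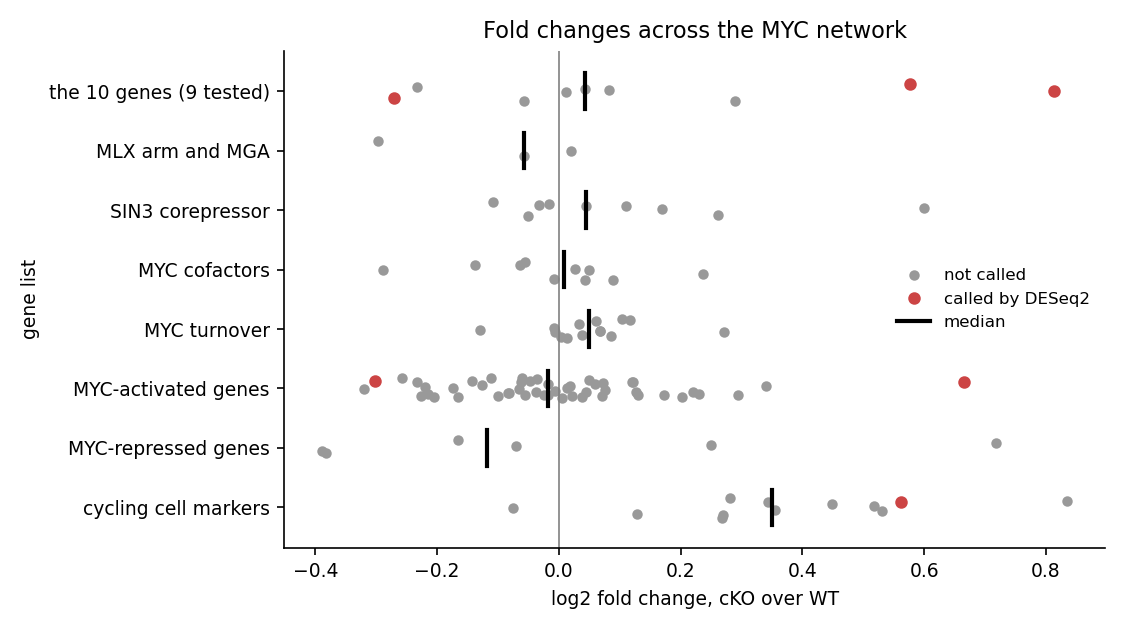
Log2 fold change of cKO over WT for each tested gene of 8 lists, 1 point a gene, with red for genes called by DESeq2 and a black line at the list's median. The medians of the network lists lie between -0.12 and 0.05, and that of the cycling cell markers at 0.35.

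The genes whose pattern over the 4 libraries was closest to that of Myc were Rad51b, Kntc1, Clspn, Kif15 and Timeless. Likeness was the Euclidean distance of log2(CPM + 0.5) values centred on each gene's mean, over 8153 genes with a mean of at least 10 CPM. The distance was 0.0573 for Rad51b and 0.149 for Timeless, against a median of 0.891. Rad51b was at 18.7 and 26.6 CPM in WT and at 42.5 and 39.3 CPM in cKO, and like Myc all 5 were lowest in WT replicate 1. The closest to Pvt1 were St8sia1, Rundc3b, Lonrf1, Mpv17 and 1600020E01Rik, at distances of 0.0374 to 0.112, against a median of 0.620. St8sia1 was at 722.3 and 649.8 CPM in WT and at 950.0 and 1058 CPM in cKO, with WT replicate 2 the lowest as for Pvt1. With 4 libraries many genes share any one order, and the distance is a description.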

How the data were processed

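Nascent RNA of DP thymocytes was measured by TTchem-seq in 2 WT and 2 cKO libraries, grouped by sample title. The authors used fastp 0.13.1, STAR 2.7.9a and featureCounts 1.6.1 per the labels, with build mm10 (GRCm38). The deposited values are expected counts of fragments per gene, 8.61% of them fractional, and the deposited length of all 24984 genes spans introns. The methods instead describe gene counts from STAR, which are whole numbers over exons, and how the fractions arose is not known, so levels per kb rest on the deposited lengths. The methods state that duplicate reads were marked, not whether they were left out of the counts, and no molecular identifiers were described, so intervals cover counting error only. Yeast spike-in RNA was added to the samples, and no scaling by it was applied here. Nothing shows how many mice a library held, so p-values measure the spread between these libraries, whose replicates differed by more than counting noise (chi-square per degree of freedom 40.7 in WT and 30.7 in cKO).

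Counts were rounded to whole numbers and tested with the DESeq2 1.42.0 Wald test, without covariates, in R 4.3.3. Called genes had a Benjamini-Hochberg adjusted p under 0.05, a mean CPM of 1 or more and a change of 1.2-fold or more. Alternatives used edgeR 4.0.16 and limma 3.58.1, other scaling and filters, a replicate block and leaving out each library. Intervals are 95% exact binomial, and the level that a count of 0 allows is taken as that of 3 fragments. Procedures were tested on simulated data.

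The members and lists were chosen with earlier results of these data known. The rule for named genes took the 10 members, Tox4, all genes within 1 Mb of Myc or Pvt1, the called genes and the highest gene per kb of each network list, and the 5 genes nearest in pattern to Myc and to Pvt1, of which 1 gene is not reported here. Some settings were changed after results had been seen: values midway between whole numbers were rounded to the even number in place of up, which moved the calls from 250 higher and 181 lower to 249 and 182, and edgeR was given its expression filter. The settings first used are kept as alternatives.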

Additional observations from a re-analysis of the deposited data

How the results depend on the processing

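DESeq2 called 249 genes higher and 182 lower in cKO, and 3 members. With the edgeR filter these were 48, 10 and 0, with limma voom 64, 20 and 0, with a replicate block in DESeq2 121, 72 and 0, and with a replicate block in edgeR 19, 9 and 0. The edgeR setting first used, on every gene with a count, gave 494, 344 and 3, and its filter was chosen after this had been seen. Limma voom with the edgeR filter, also tried after results had been seen, gave 50, 11 and 0. Leaving out 1 library gave 61 to 320, 28 to 126 and 0 to 2. The log2 fold change of Myc was 0.81 (edgeR), 0.82 (limma voom, and 0.82 with the edgeR filter), 0.84 (replicate block in DESeq2, adjusted p = 0.0889) and 0.83 (replicate block in edgeR), uncalled in each, and 0.57 to 1.11 without 1 library. That of Pvt1 was 0.58, 0.58 (0.58 with the edgeR filter), 0.58 (adjusted p = 0.0648) and 0.58 in these fits, also uncalled, and 0.49 to 0.67 without 1 library. Same-numbered libraries did not deviate together (r = -0.03). With 2 libraries a group this cannot show whether samples were paired, and pairing is not given in the sources used here. The 2 called MYC-activated genes became 1 with TMM factors, with total count factors and with edgeR on every gene with a count, and 0 with the filtered edgeR, both limma voom fits, both replicate block fits, independent filtering off, and 0 to 0 without 1 library. Without 1 library, signs turned for Mycn (-0.32 to 1.36, below 0 at -0.32 and -0.09 without WT or cKO replicate 1), Mxd3 (-0.25 to 0.52, below 0 without WT replicate 1) and Mnt (-0.15 to 0.16, below 0 at -0.05 and -0.15 without WT or cKO replicate 1). The causes were not tested. For 20 other single genes, 58 of 260 comparisons on 4 libraries lost a call, 1 gained one and 0 changed sign. Rounding midway values up kept the 3 members called. DESeq2 size factors in place of library totals moved the levels per kb by at most 0.272%.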
